A study of Mus musculus with 6 samples.

Results

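Opposite-strand transcripts are noncoding genes named after a neighbouring gene on the other DNA strand, with the suffix os and an optional digit, such as Sox5os3 beside Sox5. Members were all genes annotated as noncoding whose symbol is another annotated gene's symbol with that suffix, and they were selected on their mean level over the 6 libraries, which had to be 1 or more CPM (a gene's reads relative to all assigned reads of the library). Of the 53700 gene identifiers in the libraries, 283 had such a name and type, and 103 of these reached the level and are described here beside their 95 sense partners. All 95 partners were protein coding, and 8 of them had 2 transcripts. Because the level chose the members, the levels over all libraries are given as a description, whereas the rule did not use the contrast between genotypes. The nearest genes below the limit were Ccdc142os at 0.988 CPM, Ino80dos at 0.924 CPM and Bcas1os2 at 0.859 CPM. The nearest above it were Grip1os2 at 1.06 CPM, Cpeb1os1 at 1.07 CPM and Nckap5los at 1.08 CPM.

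The study sequenced total RNA of whole testes taken at postnatal day 45. The 6 libraries came from 3 mice labelled MSL3 WT (WT below) and 3 labelled MSL3 cKO, a conditional knockout of a floxed Msl3 allele (cKO below). Both genotypes carry the same strain label, Msl3em1Forni/C57BL/6J. The labels number the libraries of each genotype as biological replicates; the recombinase line, the cells in which it acts and the deleted exons are not given in the sources used here.

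Promoters of mammalian genes commonly start RNA in both directions, and the upstream, antisense product is usually short-lived because the nuclear RNA exosome degrades it. Some of these products, and others that start within or beyond a gene on its opposite strand, are spliced and stable enough to be annotated as long noncoding RNAs. Some antisense RNAs are known to act on the gene they overlap, whereas for most no function is known. The testis transcribes an unusually wide range of long noncoding RNAs, above all in meiotic spermatocytes and round spermatids. Msl3 encodes a chromodomain protein of the male-specific lethal complex, which acetylates histone H4.

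Assigned reads ranged from 56991431 to 73766444 per library. Counts on the strand opposite to the read held 96.0% to 96.2% of the stranded counts, so the 2 strands of a locus could be counted apart. Msl3 itself had 942, 1226 and 990 reads in WT and 1170, 829 and 923 in cKO, and the groups overlapped. Between cKO and WT it differed by -0.12 (SE 0.0879) on the log2 scale, adjusted p 0.550 by edgeR's quasi-likelihood test with Benjamini-Hochberg adjustment. The level of Msl3 RNA therefore does not separate the genotypes, so directions are given between libraries as labelled, cKO against WT. Summed markers of round spermatids lay at 1436 to 1498 CPM in WT and 1250 to 1367 CPM in cKO, all 6 genes of that list being lower. Sums for spermatogonia, spermatocytes, elongating spermatids, Sertoli, Leydig, peritubular myoid cells and macrophages overlapped between the groups, and those for endothelial cells (15.2 to 16.3 CPM in WT, 16.5 to 19.8 CPM in cKO) did not. Every marker of these lists was at 1 CPM or more. Of 4 epididymis markers, 3 were under 1 CPM (Defb20, Lcn5 and Adam7), and the sum, nearly all from Cst8, which round spermatids are also known to express, was 221 to 259 CPM in WT and 172 to 203 CPM in cKO, without overlap.

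The 103 transcripts lay in 6 kinds of position relative to the partner in the GENCODE M21 annotation of the mouse build GRCm38 (mm10). The most frequent was inside the partner's body, with 39 members, and the start of these was 5864 to 760069 bases downstream of the partner's start (median 51153). A further 24 overlapped the partner at the starts of both genes, and 21 were head to head with it without overlap, at a median distance of 118 bases. Another 9 overlapped it at the ends, 7 spanned it whole and 3 were tail to tail with it. In all, 36 members started within 1000 bases of the partner's start. Chromosome 11 held 20 members, chromosome 2 held 13 and chromosome 4 held 12. GENCODE types 94 of the 103 as antisense, and 99 were spliced, Arhgap33os with up to 12 exons. The 4 members with a single exon were Zbtb11os1, Mxra8os, Phtf1os and Cpeb1os1. Exonic length ran from 317 bases in Ube4bos2 to 6566 bases in Cep83os, with a median of 1164 against 4743 for the partners. Exonic bases were shared with the partner by 54 members and not by the other 49.

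Among head-to-head pairs, the stretch of DNA between the 2 starts lies upstream of both genes, and the stretches differed in their content of CpG dinucleotides, which are dense in the promoters of widely expressed genes. Of the 16 such stretches that RefSeq's GRCm38.p6 promoter sequences cover, 7 are shown as examples of CpG-dense and CpG-poor stretches, picked after their counts were seen. Each reads from the transcript's start to the partner's start on the partner's strand, with every CpG in capitals. The first 3 are CpG-dense. Cep83os (chr10:94688577-94688653, plus strand) has 11 CpG, Med9os (chr11:59948143-59948205, plus strand) has 7 and Arl4aos (chr12:40038026-40038098, minus strand) has 11. Stamos, with 21 CpG in a longer stretch, is not shown. The other 4 are CpG-poor. The stretch of Wt1os, with 18 bases and 0 CpG, is too short to show or to class. The whole RefSeq promoter sequence at the Wt1os start has 16 CpG, against a median of 7 over all such sequences. Of the partners, Hmgb4 is a high-mobility-group protein of spermatids, Ccdc42 a protein needed to build the sperm tail and Saxo1 a protein of axonemal microtubules. The Saxo1os stretch (chr4:86558329-86558445, minus strand) has 0 CpG, and those of Hmgb4os (chr4:128260958-128261043, minus strand), Ccdc42os (chr11:68586958-68587020, plus strand) and Cdrt4os2 (chr11:62951080-62951192, plus strand) have 2 each.
Cep83os: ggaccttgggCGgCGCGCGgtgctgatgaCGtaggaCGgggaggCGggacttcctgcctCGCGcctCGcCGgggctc
Med9os: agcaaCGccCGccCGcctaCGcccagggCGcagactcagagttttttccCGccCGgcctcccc
Arl4aos: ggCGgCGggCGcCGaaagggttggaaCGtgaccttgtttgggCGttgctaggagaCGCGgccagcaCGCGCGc
Saxo1os: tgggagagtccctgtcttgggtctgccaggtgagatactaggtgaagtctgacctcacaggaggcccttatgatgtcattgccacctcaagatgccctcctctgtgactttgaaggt
Hmgb4os: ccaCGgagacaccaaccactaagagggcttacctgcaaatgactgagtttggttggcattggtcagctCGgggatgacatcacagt
Ccdc42os: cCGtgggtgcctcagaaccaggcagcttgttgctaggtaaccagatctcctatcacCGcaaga
Cdrt4os2: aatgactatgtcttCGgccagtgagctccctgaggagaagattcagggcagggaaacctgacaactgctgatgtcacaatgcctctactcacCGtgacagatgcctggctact

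Sox5os3 and Tmem132cos are shown as transcripts that start deep inside the partner and that had some of the smallest unadjusted p-values between the genotypes. Each is the RefSeq window of 300 bases, of which 250 lie before the RefSeq start and 50 after it. In the Sox5os3 window (chr6:144672618-144672917, plus strand) capitals mark the 1 match to the full cAMP response element TGACGTCA, a palindrome bound by CREB and CREM proteins, whose first base lies 50 bases before the start. That motif occurs in 588 of the 32851 windows in the table (1.79%), searched on both strands. Of the 54 member windows that start within 100 bases of the GENCODE start, 1 holds it (1.85%). In the Tmem132cos window (chr5:127281574-127281873, minus strand) capitals mark its 6 CpG. A match is a stretch of letters and was not tested for binding. The RefSeq table held 71 of the 103 members, 54 of them with a start within 100 bases of the GENCODE start, and Usp46os1 is not among them.
Sox5os3: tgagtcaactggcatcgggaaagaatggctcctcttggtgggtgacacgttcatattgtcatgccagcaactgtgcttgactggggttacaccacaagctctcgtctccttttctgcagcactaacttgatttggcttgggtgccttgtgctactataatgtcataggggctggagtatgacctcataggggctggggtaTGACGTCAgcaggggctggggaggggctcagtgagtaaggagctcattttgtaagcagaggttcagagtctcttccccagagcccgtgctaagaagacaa
Tmem132cos: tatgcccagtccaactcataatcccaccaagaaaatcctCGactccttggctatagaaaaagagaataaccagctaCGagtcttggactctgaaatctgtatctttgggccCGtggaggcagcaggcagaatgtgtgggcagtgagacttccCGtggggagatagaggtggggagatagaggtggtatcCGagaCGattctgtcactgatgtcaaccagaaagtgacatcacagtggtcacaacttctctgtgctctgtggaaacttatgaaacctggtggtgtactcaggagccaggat

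Over those 54 windows the CpG count followed position. Members inside the partner had 1 to 7 CpG (median 4, n = 21), whereas head-to-head members had 3 to 55 (median 25, n = 13) and members overlapping at the starts had 3 to 37 (median 18, n = 12). The median of all 32851 windows was 7. The core motif CAACNG of the MYB family, to which the meiotic regulator MYBL1 belongs, was found on either strand in 23 of the 54 windows (42.6%) and in 35.0% of all windows.

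**Figure D1:**
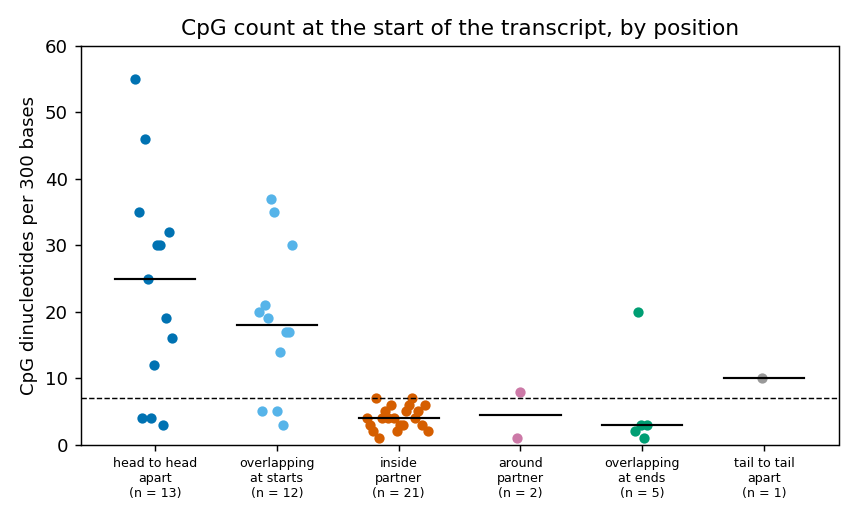
CpG dinucleotides per 300-base window at the start of each transcript, by position relative to the sense partner; points are transcripts, bars are medians and the dashed line is the median of all windows (7). The 21 windows inside the partner lie between 1 and 7, and most head-to-head windows lie above 10.

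The transcripts made up 0.105% to 0.122% of assigned reads. Levels below are CPM on library sizes scaled by the trimmed mean of M values (TMM), and levels of different genes are compared as CPM per kilobase of exon. The median member had 4.18 CPM against 27.7 CPM for the median partner, but per kilobase the medians were 4.29 and 4.03. Per kilobase, 50 of the 103 members had a higher mean than their partner; without the correction for length 28 did. Of those 50, 40 were above the partner in every library. Another 6 were not above it in every library (Saxo1os, Far1os, Brip1os, Plekhd1os, Rab11fip4os2 and Fhitos). For the other 4 (Hoxd3os1, Fcnaos, Tlx1os and Tomm6os) the partner had 3 or fewer reads in some library, and no ratio is given.

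**Figure D2:**
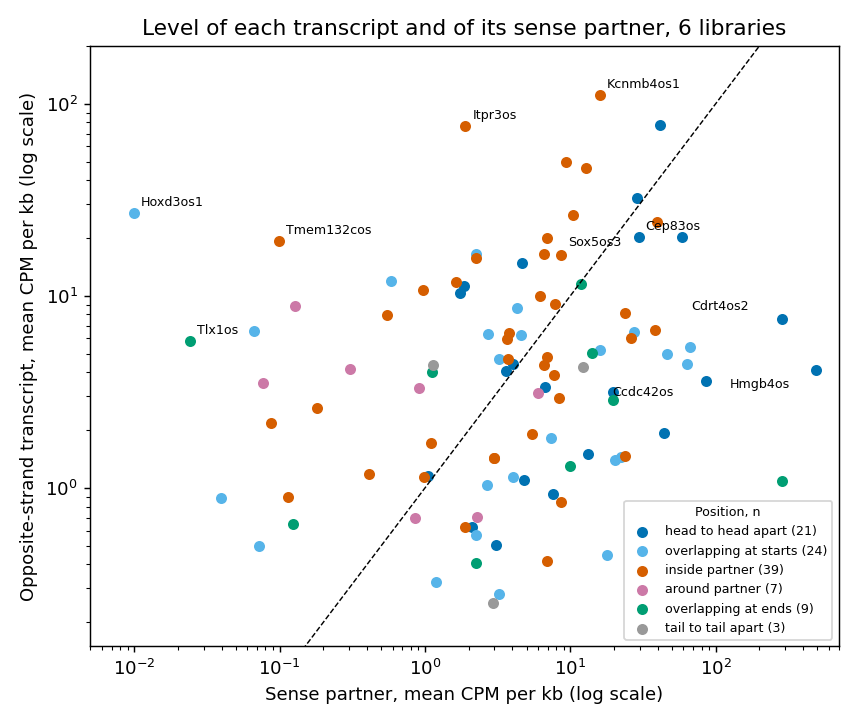
Mean level of each transcript (vertical axis) and of its sense partner (horizontal axis) over the 6 libraries, both in CPM per kilobase on log scales and coloured by position; the dashed line marks equal levels. The 50 points above the line include Hoxd3os1, Itpr3os and Tmem132cos at the left, and Hmgb4os and Cdrt4os2 lie far below it.

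The 6 members with the highest CPM held 41.7% of all reads of the 103. Cep83os is head to head with Cep83, which encodes a protein of the centriole's distal appendages, and had 123, 137 and 141 CPM in the WT libraries and 122, 137 and 134 CPM in the cKO libraries. Cep83 had 201, 206 and 207 CPM in WT and 209.9, 246 and 215 CPM in cKO; per kilobase the transcript stood at 0.684 times its partner. The groups overlapped for Cep83os, whereas every cKO library was above every WT library for Cep83.

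Kcnmb4os1 starts inside Kcnmb4, a regulatory subunit of the BK potassium channel, and was the highest member per kilobase at 111 CPM per kb. It had 92.9, 101 and 90.3 CPM in the WT libraries and 91.7, 80.6 and 90.2 CPM in the cKO libraries. Kcnmb4 had 53.4, 55.9 and 56.04 CPM in WT and 52.5, 49.98 and 50.7 CPM in cKO, so that the transcript stood at 6.93 times (6.5 to 7.30 over the libraries) per kilobase. The groups overlapped for the transcript and were apart for Kcnmb4, lower in cKO. A second transcript of this locus, Kcnmb4os2, overlaps the start of Kcnmb4 and averaged 10.6 CPM.

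Itpr3os lies inside Itpr3, a calcium channel of the endoplasmic reticulum opened by inositol trisphosphate. It had 61.2, 53.2 and 62.6 CPM in the WT libraries and 69.7, 57.6 and 61.5 CPM in the cKO libraries, beside 14.6, 16.6 and 17.4 CPM in WT and 17.0, 21.1 and 15.97 CPM in cKO for Itpr3. Per kilobase the transcript stood at 40.5 times (30.97 to 47.6 over the libraries), and neither gene separated the genotypes.

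Frs3os lies inside Frs3, an adaptor of fibroblast growth factor receptors. The transcript had 59.4, 49.0 and 52.1 CPM in the WT libraries and 57.7, 50.03 and 49.99 CPM in the cKO libraries, and Frs3 had 32.2, 25.2 and 29.3 CPM in WT and 33.5, 29.1 and 26.8 CPM in cKO, with overlap in both. Cdk19os lies inside Cdk19, a kinase of the Mediator complex, and had 49.9, 49.4 and 50.6 CPM in the WT libraries and 52.9, 54.2 and 53.7 CPM in the cKO libraries. Cdk19 had 72.2, 69.3 and 67.9 CPM in WT and 73.3, 85.1 and 79.9 CPM in cKO. In this pair both genes were higher in every cKO library than in any WT library, with log2 fold changes of 0.10 (SE 0.0618) and 0.19 (SE 0.0723), and neither passed the adjusted threshold.

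For 12 members the partner itself was under 1 CPM, so that most reads assigned to the 2 genes were the transcript's. Reads that fit several genes are not assigned, which can lower a partner's count. Among these partners was the homeobox gene Hoxd3, a patterning gene of the embryo. Its transcript Hoxd3os1 had 77.5, 72.6 and 73.3 CPM in the WT libraries and 84.8, 78.4 and 79.2 CPM in the cKO libraries. Hoxd3 had 3, 1 and 6 reads in WT and 0, 2 and 3 in cKO. Of the 31-base stretches of Hoxd3's annotated exons, 61.1% also occur in other annotated genes, and reads shared in this way are not counted for it. The WT and cKO libraries of Hoxd3os1 did not overlap and were higher in cKO (log2 fold change 0.12, SE 0.0663, adjusted p 0.446).

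The homeobox genes Hoxb5 and Tlx1 were also under 1 CPM. Hoxb5os, which spans Hoxb5, had 6.45, 6.59 and 6.19 CPM in the WT libraries and 6.26, 5.55 and 5.99 CPM in the cKO libraries, and Hoxb5 had 0.391, 0.277 and 0.386 CPM in WT and 0.411, 0.411 and 0.257 CPM in cKO. Tlx1os overlaps the end of Tlx1, a gene of spleen development, and had 3.95, 3.53 and 3.46 CPM in the WT libraries and 3.90, 3.54 and 3.22 CPM in the cKO libraries where Tlx1 had 4, 3 and 3 reads in WT and 3, 4 and 2 in cKO. The groups overlapped in all 4 genes. Gad1, which encodes the enzyme that makes the neurotransmitter GABA, had 0.561, 0.323 and 0.386 CPM in WT and 0.507, 0.875 and 0.411 CPM in cKO, and Gad1os, overlapping at its start, had 8.08, 6.18 and 5.29 CPM in WT and 5.27, 7.002 and 5.12 CPM in cKO. Per kilobase Gad1os stood at 98.2 times (65.2 to 156 over the libraries) Gad1, again with overlap between the groups.

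Fcnaos spans Fcna, a ficolin of innate immunity. The transcript had 4.57, 6.30 and 6.21 CPM in the WT libraries and 4.59, 7.07 and 5.51 CPM in the cKO libraries, with overlap. Fcna had 9, 12 and 9 reads in WT and 1, 4 and 4 in cKO, at or near the limit of counting. Tnfsf13os spans Tnfsf13, the B-cell cytokine APRIL, and had 4.86, 4.67 and 4.71 CPM in the WT libraries and 4.56, 4.48 and 4.26 CPM in the cKO libraries, each cKO library being lower than each WT library. Tnfsf13 had 0.527, 0.477 and 0.466 CPM in WT and 0.644, 0.464 and 0.428 CPM in cKO, and 58.4% of its 31-base stretches are shared with other annotated genes. Atcayos overlaps the end of Atcay, a brain protein named caytaxin, and had 2.18, 3.37 and 3.36 CPM in the WT libraries and 2.44, 3.13 and 2.60 CPM in the cKO libraries against 0.561, 0.323 and 0.482 CPM in WT and 0.616, 0.482 and 0.479 CPM in cKO for Atcay. Tomm6os, at the start of Tomm6 of the mitochondrial import complex, had 2.33, 2.96 and 2.52 CPM in the WT libraries and 2.51, 3.18 and 2.26 CPM in the cKO libraries. Tomm6 had 1, 1 and 5 reads in WT and 5, 2 and 3 in cKO, but 77.3% of its 31-base stretches and 44.3% of those of Tomm6os occur in other genes, so both counts are uncertain.

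The remaining transcripts of that kind were Nell1os, Kank4os, Gimap1os and Tmem132cos, whose values are given with the comparison of genotypes. Nell1os, inside the secreted factor gene Nell1, had 2.23, 3.28 and 2.99 CPM in the WT libraries and 1.96, 2.29 and 2.46 CPM in the cKO libraries, and Nell1 had 0.629, 0.632 and 0.675 CPM in WT and 0.616, 0.697 and 0.582 CPM in cKO. Kank4os, inside Kank4, had 2.11, 1.68 and 2.04 CPM in the WT libraries and 2.18, 2.13 and 2.05 CPM in the cKO libraries beside 0.663, 0.385 and 0.691 CPM in WT and 0.507, 0.5001 and 0.531 CPM in cKO for its partner. The WT and cKO libraries overlapped in each of these genes. Gimap1 encodes a GTPase of lymphocytes and had 0.119, 0.246 and 0.322 CPM in WT and 0.233, 0.214 and 0.188 CPM in cKO, whereas Gimap1os at its start had 1.33, 1.69 and 1.77 CPM in the WT libraries and 1.41, 1.57 and 1.52 CPM in the cKO libraries. The levels of Gimap1os overlapped between genotypes.

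In the comparison of genotypes 0 of the 103 members passed an adjusted p of 0.05 with edgeR, against 4 of all 21902 genes tested (0.0183%). The smallest adjusted p among members was 0.277. At an unadjusted p under 0.05, 16 members were lower in cKO, where 6.54% of all genes were, and 2 were higher (Lyzl4os and Fhitos), where 7.32% of all genes were. All 3 cKO libraries lay below all 3 WT libraries in 20 members (8.86% of all genes), and above them in 4 (10% of all genes). DESeq2 called 4 members, Saxo1os, Sox5os3, Tmem132cos and Usp46os1, all lower in cKO, among 193 calls (1.39% of the 13895 genes it adjusted). With no filter on low counts edgeR called 7 members (2.07% of all genes), 2 with a replicate block (0.224%), 4 without WT replicate 1 (0.518%) and 3 without cKO replicate 1 (2.82%).

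Most members pointed the same way. The log2 fold change was below 0 in 81 of 103 members, against 49.3% of all genes, and the median was -0.12 against 0.0030 over all genes tested. Added up, the members had 1111, 1189 and 1158 CPM in the WT libraries and 1102, 1066 and 1087 CPM in the cKO libraries, so the WT sums were all above the cKO sums, by little in the case of WT 1. Without WT replicate 2 the median was -0.06 and 77 members were below 0. That library had the highest value of the 6 in 46 of the 103 members (44.7%), against 23.1% of all genes. In bulk tissue, fewer cells of the type that makes a transcript and less of it per cell cannot be told apart. The sum of round spermatid markers, lower in the cKO libraries, moves in the same direction. So does that of epididymis markers, but it is nearly all Cst8, which round spermatids are also known to express. The endothelial sum was higher in cKO, and the sums of the other cell types overlapped. The part of any cell type in the difference was not tested.

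Antisense and lincRNA genes outside the members had like values. The 624 other genes of type antisense at 1 CPM or more had a median log2 fold change of -0.11 with 75.0% below 0, and the 1082 lincRNA genes, which lie between other genes, had -0.15 with 79.3% below 0. Protein-coding genes (14026 at 1 CPM or more) had a median of 0.03 with 41.1% below 0. Opposite-strand genes under 1 CPM had a median of -0.09 over the 54 of 180 that could be tested, with 57.4% below 0. Their median was nearer to that of the members, and their share below 0 nearer to that of all genes. Within the members, those inside the partner had a median of -0.20 with 33 of 39 below 0, and the rest -0.10 with 48 of 64 below 0; the difference between these was not tested. By position, the cKO libraries all lay lower in 12 of the 39 members inside the partner and in 8 of the other 64 (8.86% of all genes). This difference was not tested either.

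**Figure D3:**
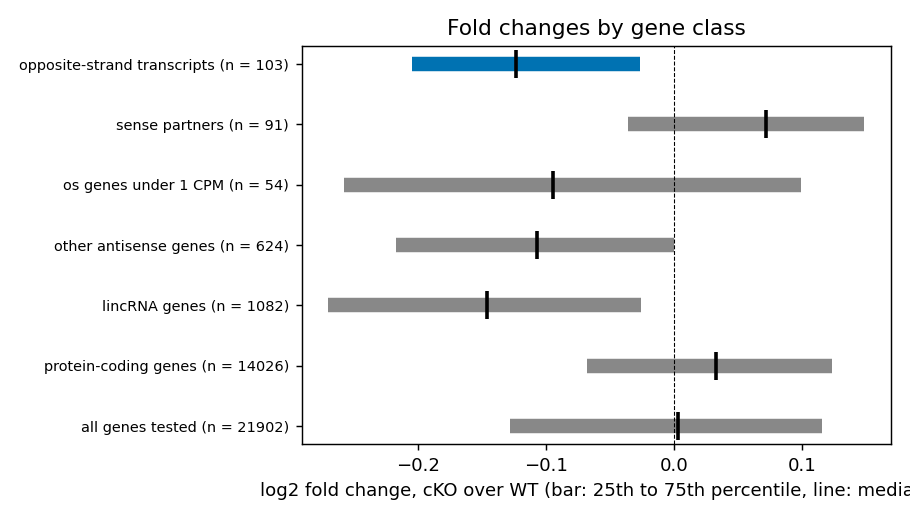
Log2 fold change of cKO over WT by gene class; bars run from the 25th to the 75th percentile, lines mark medians and n is the number of genes tested. The members (median -0.12) lie beside other antisense genes (-0.11) and lincRNA genes (-0.15), and sense partners (0.07) and protein-coding genes (0.03) lie to the right of 0.

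Sox5os3 had the smallest unadjusted p of the members. It (ENSMUSG00000085785, chr6:144672868-144693834, plus strand) is a transcript of 1240 exonic bases inside Sox5, an HMG-box transcription factor gene (ENSMUSG00000041540, chr6:143828425-144781977, minus strand) whose start lies 109109 bases away, and its own start region is printed above. That distance is to the GENCODE start of Sox5. The Sox5 start in RefSeq's promoter windows lies 834871 bases from the GENCODE start. Sox5os3 had 19.98, 27.1 and 24.6 CPM in the WT libraries and 17.3, 15 and 17.0 CPM in the cKO libraries. All 3 cKO values were below all WT values, the margin between WT 1 and cKO 1 being the narrowest. Means were 23.9 ± 3.63 CPM in WT and 16.4 ± 1.26 CPM in cKO (SD, n = 3 each). The log2 fold change was -0.54 (SE 0.109), the 95% interval -0.78 to -0.30, the unadjusted p 0.000337 and the adjusted p 0.277 by edgeR. Over 13 alternative fits its adjusted p ranged from 2.61e-06 to 0.730, with 5 under 0.05. Sox5 had 126, 118 and 117 CPM in WT and 135, 131 and 119.6 CPM in cKO, overlapped between the groups and had a log2 fold change of 0.10 (SE 0.0701). A second transcript of Sox5, Sox5os1, averaged 1.34 CPM with a log2 fold change of -0.19.

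Usp46os1 (ENSMUSG00000087250, chr5:74014215-74029680, plus strand) lies inside the gene of the deubiquitinase Usp46, 54216 bases from its start. It had 10.2, 13.7 and 12.1 CPM in the WT libraries and 8.30, 8.06 and 8.49 CPM in the cKO libraries. The cKO libraries were close together and all below the WT libraries, among which WT 1 was lowest. The means were 12.0 ± 1.78 CPM in WT and 8.28 ± 0.217 CPM in cKO (SD, n = 3 each), the log2 fold change -0.54 (SE 0.109) and the adjusted p 0.277, with a range from 8.41e-05 to 0.730 over the 13 alternative fits and 5 under 0.05. A second transcript inside the gene, Usp46os2, had 4.86, 4.74 and 4.87 CPM in the WT libraries and 4.52, 4.43 and 4.30 CPM in the cKO libraries, also lower in all cKO libraries (log2 fold change -0.13, SE 0.100). Usp46 had 53.7, 56.1 and 55.1 CPM in WT and 53.3, 52.2 and 53.4 CPM in cKO, likewise without overlap and with a log2 fold change of -0.05 (SE 0.0624). Each of the 3 genes of the locus was lower in all cKO libraries, as 8.86% of all genes were, with the log2 fold change farthest from 0 in Usp46os1. A joint change of the locus was not tested.

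Saxo1os (chr4:86558446-86559804, plus strand) is head to head with Saxo1 across the CpG-free stretch printed above, their starts 118 bases apart. It had 19.8, 27.7 and 24.02 CPM in the WT libraries and 16.7, 14.4 and 19.3 CPM in the cKO libraries. Its cKO libraries were all below its WT libraries, with WT 1 and cKO 3 close together. The log2 fold change was -0.51 (SE 0.127) and the adjusted p 0.277, with 3 of the 13 alternatives under 0.05. Saxo1 had 65.9, 61.5 and 63.2 CPM in WT and 61.1, 69.1 and 56.2 CPM in cKO, with overlap and a log2 fold change of -0.03 (SE 0.0808). The 2 genes start at either side of the same short stretch of DNA.

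Nrg3os lies inside Nrg3, which encodes a neuregulin ligand of the receptor ErbB4, and had 2.59, 2.94 and 2.97 CPM in the WT libraries and 1.90, 1.89 and 2.28 CPM in the cKO libraries. The groups were apart and the log2 fold change was -0.49 (SE 0.135). Nrg3 had 1.07, 1.42 and 1.13 CPM in WT and 1.26, 1.41 and 1.10 CPM in cKO and overlapped. Tmem132cos (chr5:127256858-127281634, minus strand) lies inside Tmem132c and had 17.9, 20.2 and 18.9 CPM in the WT libraries and 16, 15 and 14.4 CPM in the cKO libraries, which left every cKO library below every WT library. Its log2 fold change was -0.33 (SE 0.0813) and its unadjusted p 0.00159 by edgeR. Tmem132c had 0.697, 0.662 and 0.402 CPM in WT and 0.644, 0.393 and 0.685 CPM in cKO, with overlap. Per kilobase Tmem132cos stood at 195 times (139 to 313 over the libraries) its partner.

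**Figure D4:**
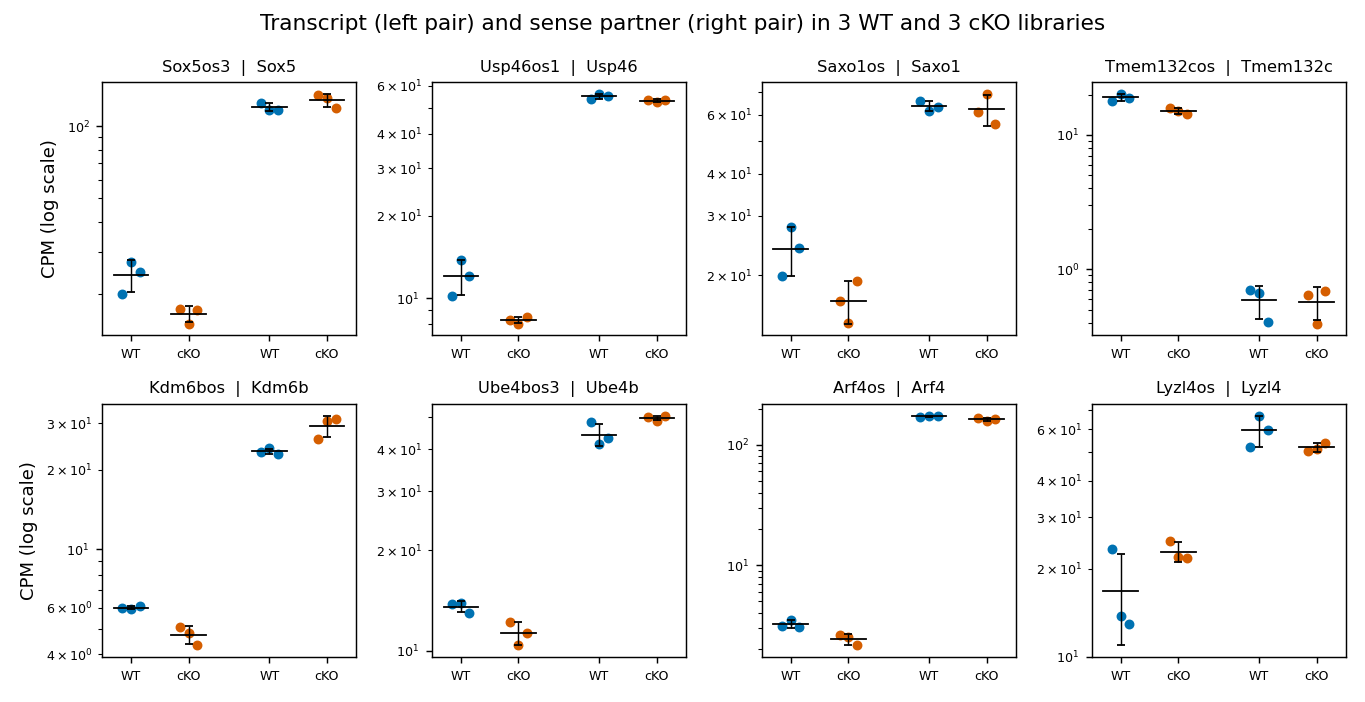
CPM (log scale) of 8 transcripts and of their sense partners in each library; points are libraries, lines are means and bars are SD (n = 3). In Sox5os3, Usp46os1, Saxo1os, Tmem132cos, Kdm6bos, Ube4bos3 and Arf4os the cKO points lie below the WT points, and in Lyzl4os 1 WT point lies within the cKO range.

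Kdm6bos lies inside Kdm6b, a histone demethylase of the repressive mark H3K27me3 and belongs to the 4 pairs in which the transcript was lower and the partner higher in cKO without overlap in either gene. Taken singly, 20 of 103 members were lower and 18 of 91 tested partners higher without overlap. Of all genes, 8.86% were lower and 10% higher in this way, and 1934 of 14026 protein-coding genes were higher. The number of such pairs is therefore not read as a link between the genes of a pair. The transcript had 5.99, 5.95 and 6.09 CPM in the WT libraries and 5.10, 4.84 and 4.33 CPM in the cKO libraries. Kdm6b had 23.2, 24.1 and 23.0 CPM in WT and 26.2, 30.6 and 31.1 CPM in cKO. The transcript was lower and the partner higher in every cKO library, with log2 fold changes of -0.34 (SE 0.103) and 0.32 (SE 0.0815) and adjusted p-values of 0.288 and 0.277 by edgeR. They share 286 exonic bases.

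The same arrangement of directions, with no overlap in either gene, was found in 3 other pairs. Ube4bos3, inside the ubiquitin ligase gene Ube4b, had 13.8, 13.9 and 13.0 CPM in the WT libraries and 12.2, 10.4 and 11.3 CPM in the cKO libraries. Ube4b had 48.1, 41.5 and 43.1 CPM in WT and 49.9, 48.7 and 50.2 CPM in cKO, which gave log2 fold changes of -0.26 (SE 0.0867) and 0.17 (SE 0.0727). The second transcript of that gene, Ube4bos2, averaged 1.39 CPM, with a log2 fold change of -0.12. Aknaos, inside Akna, a gene for an AT-hook protein that also organises microtubules at centrosomes, had 29.6, 32.3 and 30.99 CPM in the WT libraries and 28.8, 26.4 and 26.6 CPM in the cKO libraries, and Akna had 55.9, 58.5 and 58.0 CPM in WT and 58.6, 71.9 and 60.6 CPM in cKO. The log2 fold changes in that pair were -0.18 (SE 0.0725) and 0.15 (SE 0.0818). Tbc1d22bos had 5.22, 6.08 and 6.06 CPM in the WT libraries and 4.77, 4.93 and 5.15 CPM in the cKO libraries and Tbc1d22b, which holds a domain that turns off Rab GTPases, had 34.5, 32.1 and 31.7 CPM in WT and 36.3, 41.1 and 36.0 CPM in cKO. Here the log2 fold changes were -0.23 (SE 0.105) and 0.21 (SE 0.0767). No gene of these pairs passed the adjusted threshold.

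In 5 pairs both genes were lower without overlap. Taken singly, 20 of 103 members and 10 of 91 tested partners were lower without overlap (8.86% of all genes, and 1111 of 14026 protein-coding genes). The number of such pairs is not read as a link between the genes of a pair, and Usp46 counts once for each of its transcripts. Besides Usp46os1 and Usp46os2, these included Arf4os, which overlaps the start of the Golgi GTPase gene Arf4 and had 3.11, 3.51 and 3.06 CPM in the WT libraries and 2.63, 2.52 and 2.16 CPM in the cKO libraries, with a log2 fold change of -0.40 (SE 0.130). Arf4 had 169.5, 172 and 175 CPM in WT and 166, 158 and 164 CPM in cKO, a log2 fold change of -0.08 (SE 0.0617). Cdrt4os2, head to head with Cdrt4, had 3.76, 4.05 and 4.16 CPM in the WT libraries and 3.45, 3.59 and 3.32 CPM in the cKO libraries, and Cdrt4 had 211, 216 and 224 CPM in WT and 206, 178 and 205 CPM in cKO, with log2 fold changes of -0.21 and -0.14. Mipepos, at the start of the mitochondrial peptidase gene Mipep, had 3.27, 3.91 and 3.47 CPM in the WT libraries and 3.03, 3.04 and 3.20 CPM in the cKO libraries, and Mipep had 360.2, 382 and 382 CPM in WT and 349, 332 and 339 CPM in cKO. Mipepos stood at 0.929% of its partner's CPM, a share that reads of a strong gene can leave on the wrong strand. It shares only 9 exonic bases with Mipep, and the source of its reads was not tested.

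Among 3551 genes with 10000 reads or more and no annotated gene opposite, the median share of reads on the wrong strand was 0.123% and the 90th percentile was 1.23%. Of the members, 98 exceeded that 90th percentile of the level of their named partner, the only opposite gene considered. The other 5 were Mipepos, Hmgb4os (0.582% of the partner's CPM), Appbp2os (1.10%), Sox5os1 (1.08%) and Grip1os2 (0.550%). Sox5os1 shares 1330 exonic bases with its partner and Appbp2os 356, and for these wrong-strand reads and transcript cannot be told apart by level. Mipepos shares 9, and Hmgb4os and Grip1os2 share 0. Wrong-strand reads of the partner's exons would fall outside all or nearly all exons of these, and the source of their reads was not tested. Other genes also lie opposite exons of some members, such as Gapdhs for Tmem147os, and were not considered.

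A further 3 transcripts were lower in every cKO library. Rsf1os1, inside the gene of the chromatin remodelling subunit Rsf1, had 5.34, 5.99 and 5.55 CPM in the WT libraries and 4.44, 4.59 and 4.81 CPM in the cKO libraries, with a log2 fold change of -0.29 (SE 0.102). Rsf1 had 37.9, 40.3 and 38.7 CPM in WT and 38.7, 55.5 and 45.4 CPM in cKO, the highest values being in cKO 2 and cKO 3, and overlapped. Fbxl12os, tail to tail with the ubiquitin ligase gene Fbxl12, had 1.41, 1.45 and 1.46 CPM in the WT libraries and 1.25, 1.13 and 1.23 CPM in the cKO libraries beside 14.6, 14.99 and 15.8 CPM in WT and 15.97, 15.1 and 13.8 CPM in cKO for Fbxl12. Its sequence is 29.3% shared with other genes. Grip1os2 had 1.14, 1.17 and 1.19 CPM in the WT libraries and 0.945, 0.947 and 0.975 CPM in the cKO libraries and its partner Grip1, a scaffold of glutamate receptors, had 193, 185 and 201 CPM in WT and 190.5, 198 and 190.0 CPM in cKO. Grip1os1, the other transcript inside Grip1, averaged 17.5 CPM with a log2 fold change of -0.34 (SE 0.119).

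Transcripts higher in every cKO library were Hoxd3os1 and Cdk19os, given above, Fhitos and Prox2os. Fhitos lies in Fhit, a fragile-site gene for a diadenosine hydrolase, and had 1.75, 1.69 and 1.75 CPM in the WT libraries and 2.08, 2.39 and 1.97 CPM in the cKO libraries. Fhit had 1.17, 1.91 and 1.72 CPM in WT and 1.29, 1.25 and 1.47 CPM in cKO and overlapped; the log2 fold change of Fhitos was 0.31 (SE 0.138) and its adjusted p 0.352 by edgeR. Prox2os overlaps the end of the homeobox gene Prox2 and had 1.41, 1.37 and 1.38 CPM in the WT libraries and 1.51, 1.59 and 1.54 CPM in the cKO libraries, a log2 fold change of 0.15 (SE 0.142). Prox2 had 40.4, 38.2 and 39.2 CPM in WT and 38.9, 40.4 and 37.3 CPM in cKO, with overlap.

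The highest log2 fold change of the members belonged to Lyzl4os, inside the gene of a sperm lysozyme-like protein, Lyzl4. It had 23.4, 13.8 and 12.9 CPM in the WT libraries and 24.9, 21.9 and 21.7 CPM in the cKO libraries. The cKO libraries were close together, and WT 1 stood with them while WT 2 and WT 3 were far lower. Its log2 fold change was 0.45 (SE 0.178), its adjusted p 0.313 by edgeR, and without WT replicate 1 it was 0.77 with an adjusted p of 0.00449. Lyzl4 had 52.1, 66.8 and 59.6 CPM in WT and 50.6, 51.5 and 54.1 CPM in cKO, a log2 fold change of -0.19 (SE 0.0874) in the other direction, with overlap.

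Among the sense partners 0 of 91 tested passed the adjusted threshold with edgeR (Hoxd3, Fcna, Tlx1 and Tomm6 had too few reads), 7 were lower and 14 higher at an unadjusted p under 0.05 (6.54% and 7.32% of all genes, and 817 and 1486 of 14026 protein-coding genes), and the median log2 fold change was 0.07. DESeq2 called 4 partners, Kdm6b and Pard3b higher and Hmgb4 and Jun lower. It called 1.39% of the 13895 genes it adjusted, and 146 of the 14026 protein-coding genes at 1 CPM or more. Of the 99 pairs in which both genes were tested, the transcript was lower and the partner higher in 51, both were lower in 29, both higher in 12 and the transcript higher and the partner lower in 7. Neither gene passed the adjusted threshold in any of them. Over all tested, 81 of 103 members were below 0 (49.3% of all genes). Of the 91 tested partners 59 were above 0 (50.7% of all genes, and 8257 of 14026 protein-coding genes). The number of pairs in each direction is therefore not read as a link between the genes of a pair.

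**Figure D5:**
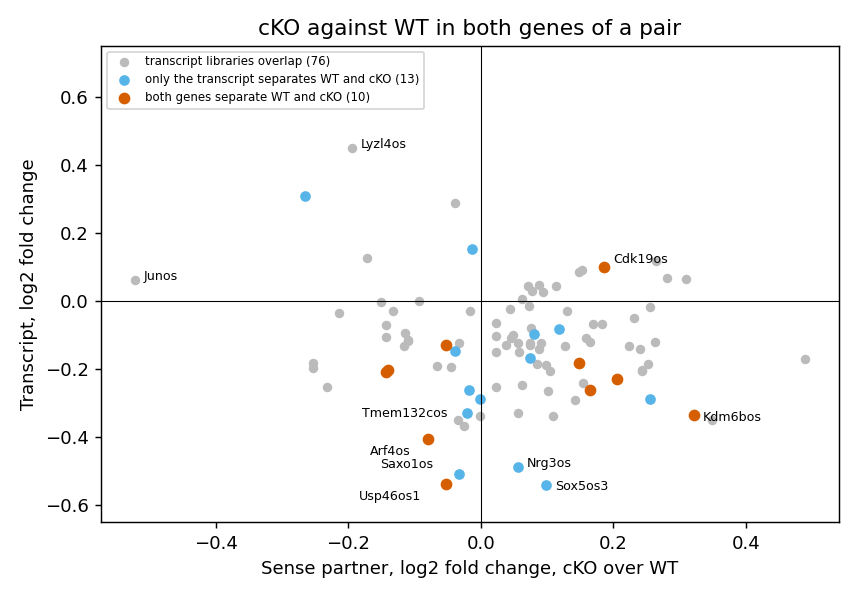
Log2 fold change (cKO over WT) of each transcript (vertical axis) and of its sense partner (horizontal axis) for the 99 pairs tested in both; colours mark transcripts, or both genes, whose WT and cKO libraries do not overlap. Of the 99 pairs, 51 lie at the lower right, and Kdm6bos is the farthest to the right of those separated in both genes. Taken singly, most transcripts lie below 0 and most partners above 0.

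Jun, the AP-1 transcription factor gene, was the partner with the lowest log2 fold change. It had 9.35, 13.8 and 13.4 CPM in the WT libraries and 8.73, 8.23 and 8.51 CPM in the cKO libraries. All cKO values were below all WT values (log2 fold change -0.52, SE 0.131, adjusted p 0.277 by edgeR). Junos, which overlaps its start and shares exonic bases with another gene on its own strand, averaged 1.15 CPM with a log2 fold change of 0.06. Hmgb4 had 375, 409.8 and 408 CPM in the WT libraries and 335, 323 and 343 CPM in the cKO libraries and was also lower in every cKO library (log2 fold change -0.25, SE 0.0660), with Hmgb4os at 2.13 CPM and -0.18. Pard3b, whose libraries are given with those of its transcript below, had a log2 fold change of 0.35 (SE 0.0837) where Pard3bos1 had -0.35 (SE 0.178).

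The other members above their partner per kilobase, with a partner at 1 CPM or more, are grouped by position. Among those head to head with it, Med9os and Stamos had some of the highest levels. Med9os, beside the Mediator subunit gene Med9, had 41.6, 42.3 and 41.2 CPM in the WT libraries and 42.7, 38.5 and 38.4 CPM in the cKO libraries, and Med9 had 84.1, 74.3 and 78.5 CPM in WT and 85.2, 77.1 and 78.3 CPM in cKO. Per kilobase Med9os stood at 1.87 times (1.79 to 2.08 over the libraries) its partner. Stamos, beside Stam of the endosomal sorting complex ESCRT-0, had 21.7, 22.7 and 21.2 CPM in the WT libraries and 20.6, 20.5 and 20.9 CPM in the cKO libraries, and Stam had 14.5, 15.5 and 14.8 CPM in WT and 14.8, 17.2 and 16.6 CPM in cKO. All cKO values of Stamos were below all WT values by a small margin, and Stam overlapped.

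Etaa1os is head to head with Etaa1, an activator of the ATR checkpoint kinase. It had 8.84, 10.1 and 10.02 CPM in the WT libraries and 7.89, 7.43 and 9.14 CPM in the cKO libraries, and Etaa1 had 7.40, 6.82 and 7.24 CPM in WT and 6.81, 8.14 and 7.48 CPM in cKO. Although its unadjusted p was 0.0350, the highest cKO library of Etaa1os was above the lowest WT library. Brip1os, beside the DNA helicase gene Brip1, had 7.04, 8.29 and 7.32 CPM in WT and 7.29, 7.07 and 8.08 CPM in cKO, and Brip1 had 8.23, 6.93 and 7.90 CPM in WT and 8.26, 7.77 and 8.20 CPM in cKO. Kif16bos, beside the kinesin gene Kif16b, had 7.21, 7.58 and 8.20 CPM in WT and 7.73, 6.25 and 7.15 CPM in cKO, and Kif16b had 38.0, 40.5 and 37.2 CPM in WT and 38.6, 53.4 and 47.0 CPM in cKO. In Kif16b the values of cKO 2 and cKO 3 were above all WT values and cKO 1 was among them. The last 2 pairs of this position were Plekhd1os (4.90, 4.34 and 4.15 CPM in WT and 4.32, 2.96 and 4.40 CPM in cKO) with Plekhd1 (17.3, 14.1 and 16.9 CPM in WT and 17.3, 15.6 and 13.9 CPM in cKO), and Bloc1s6os (2.86, 3.31 and 2.69 CPM in WT and 2.60, 2.71 and 2.82 CPM in cKO) with Bloc1s6 (14.9, 13.6 and 14.3 CPM in WT and 14.1, 14.3 and 13.4 CPM in cKO), a subunit of the complex that forms lysosome-related organelles. Both of these pairs overlapped between genotypes.

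Transcripts overlapping the start of the partner included Dgkeos, at the gene of the lipid kinase DGK epsilon. Dgkeos had 35.9, 38.0 and 39.4 CPM in the WT libraries and 27.7, 32.3 and 38.3 CPM in the cKO libraries, and Dgke had 19.6, 17.6 and 17.3 CPM in WT and 18.5, 20.5 and 19.5 CPM in cKO. Values of Dgkeos in cKO 1 and cKO 2 were below all WT values, and cKO 3 was among them. Slfn5os, at the Schlafen gene Slfn5, had 13.9, 14.0 and 14.1 CPM in the WT libraries and 13.8, 11.0 and 12.5 CPM in the cKO libraries, with each cKO library below each WT library. Slfn5 had 2.94, 4.25 and 3.59 CPM in WT and 2.55, 4.32 and 4.57 CPM in cKO and overlapped.

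Zbtb11os1, at the zinc finger gene Zbtb11, had 12.4, 12.1 and 12.2 CPM in the WT libraries and 12.4, 9.91 and 11.3 CPM in the cKO libraries, and Zbtb11 had 30.5, 30.9 and 32.5 CPM in WT and 29.7, 36.4 and 32.8 CPM in cKO. Zfp335os had 5.92, 6.18 and 6.29 CPM in the WT libraries and 6.86, 5.16 and 5.48 CPM in the cKO libraries, with overlap, while the zinc finger gene Zfp335 had 15.3, 14.0 and 14.3 CPM in WT and 15.7, 17.7 and 15.7 CPM in cKO and was higher in every cKO library. Taco1 encodes a translational activator of a mitochondrial respiratory subunit. Taco1os had 4.98, 4.64 and 4.13 CPM in the WT libraries and 4.45, 2.98 and 3.39 CPM in the cKO libraries, of which cKO 2 and cKO 3 were below all WT values and cKO 1 was not, and Taco1 had 3.74, 3.45 and 3.65 CPM in WT and 4.01, 3.63 and 4.04 CPM in cKO. Kbtbd8os had 2.48, 2.91 and 2.61 CPM in WT and 2.25, 2.71 and 3.08 CPM in cKO and Kbtbd8, a substrate adaptor of a ubiquitin ligase, had 22.6, 24.4 and 25.2 CPM in WT and 20.4, 23.8 and 23.5 CPM in cKO. Neither gene of that pair separated the genotypes.

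Inside the partner lay Prss23os, in the serine protease gene Prss23, with 17.6, 17.9 and 18.2 CPM in the WT libraries and 17.3, 15.7 and 15.4 CPM in the cKO libraries. Prss23 had 4.01, 3.80 and 3.33 CPM in WT and 3.75, 3.23 and 3.85 CPM in cKO, and the transcript was lower in every cKO library. Far1os lies in Far1, a fatty acyl-CoA reductase of ether lipid synthesis, and had 8.67, 14.6 and 10.4 CPM in the WT libraries and 8.55, 7.98 and 9.60 CPM in the cKO libraries, with Far1 at 61.4, 66.8 and 64.6 CPM in WT and 60.05, 64.6 and 64.8 CPM in cKO. Ccdc34os had 8.84, 13.1 and 10.7 CPM in the WT libraries and 8.74, 8.22 and 9.09 CPM in the cKO libraries, and Ccdc34 had 43.2, 36.9 and 40.1 CPM in WT and 41.9, 41.2 and 41.9 CPM in cKO. In both transcripts the WT 2 library was the highest of the 6, and the lowest WT library was within the cKO range.

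Kcnab3os, in a gene for a beta subunit of voltage-gated potassium channels, had 6.67, 7.12 and 6.38 CPM in the WT libraries and 6.53, 6.59 and 6.64 CPM in the cKO libraries. Kcnab3 had 4.13, 5.25 and 5.44 CPM in WT and 4.77, 5.05 and 3.70 CPM in cKO. Runx2os3, in the bone transcription factor gene Runx2, had 5.27, 7.53 and 5.89 CPM in the WT libraries and 5.10, 5.43 and 5.96 CPM in the cKO libraries, and Runx2 had 4.57, 4.05 and 4.599 CPM in WT and 4.52, 6.75 and 4.52 CPM in cKO. Both pairs overlapped between genotypes. Pip5k1bos had 3.71, 5.07 and 4.37 CPM in WT and 3.78, 4.23 and 3.44 CPM in cKO, whereas its partner Pip5k1b, a phosphatidylinositol phosphate kinase, had 14.7, 13.1 and 12.6 CPM in WT and 16.4, 15.7 and 15.8 CPM in cKO. Only the partner separated the genotypes, higher in cKO.

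Rab11fip4os2, in a gene for an effector of the recycling GTPase Rab11, had 3.74, 4.61 and 4.79 CPM in the WT libraries and 3.95, 3.32 and 3.85 CPM in the cKO libraries. Rab11fip4 had 28.2, 23.8 and 26.7 CPM in WT and 29.1, 29.9 and 28.4 CPM in cKO and was above every WT library in each cKO library. Pard3bos1 had 2.77, 4.70 and 3.88 CPM in the WT libraries and 2.58, 3.22 and 3.17 CPM in the cKO libraries, and the polarity gene Pard3b had 12.7, 13.0 and 12.6 CPM in WT and 15, 16.1 and 17.7 CPM in cKO. The transcript overlapped, with cKO 1 the lowest of the 6, whereas Pard3b was higher in all 3 cKO libraries. Ppp2r2cos, in a gene for a regulatory subunit of protein phosphatase 2A, had 1.55, 1.86 and 2.396 CPM in WT and 1.64, 1.38 and 1.81 CPM in cKO, and Ppp2r2c had 2.01, 1.56 and 1.74 CPM in WT and 1.93, 1.98 and 1.76 CPM in cKO. That pair overlapped.

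Members above their partner from other positions were Nudt12os, Ppifos and Epb41l4aos. Nudt12os spans Nudt12, a peroxisomal hydrolase of NADH, and had 4.51, 6.32 and 5.34 CPM in the WT libraries and 4.71, 5.52 and 4.55 CPM in the cKO libraries against 3.91, 4.57 and 3.99 CPM in WT and 3.53, 4.00 and 4.00 CPM in cKO for Nudt12. Ppifos overlaps the end of Ppif, which encodes mitochondrial cyclophilin D, and had 4.95, 4.79 and 4.84 CPM in the WT libraries and 5.49, 3.29 and 4.54 CPM in the cKO libraries against 5.83, 5.11 and 5.58 CPM in WT and 5.96, 5.48 and 5.72 CPM in cKO for Ppif. With the unstranded counts Ppifos kept 13.9% of its reads, the least of all members, since reads in exons of both genes are then not assigned. Epb41l4aos is tail to tail with Epb41l4a and had 1.79, 2.26 and 1.99 CPM in WT and 1.92, 1.5 and 1.87 CPM in cKO. Epb41l4a had 10.4, 10.8 and 10.6 CPM in WT and 10.01, 10.3 and 10.03 CPM in cKO, with all cKO values below the lowest WT value, while the transcripts of these 3 pairs overlapped.

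The members not described so far overlapped between the genotypes and stood below their partner per kilobase. Inside the partner lay Cep112os1 (18.1 CPM), Prkag2os1 (6.55 CPM), Pitpnm2os1 (3.10 CPM), Lrp8os1 (2.71 CPM), Lrrc75aos2 (1.76 CPM), Slain1os (1.29 CPM), Lrrc75aos1 (1.12 CPM) and Nckap5los. Head to head with the partner were Arl4aos (15.1 CPM), Rbm46os (10.9 CPM), Ccdc42os (4.79 CPM), Wt1os (3.88 CPM), Tmem147os (2.73 CPM), Smc2os (2.09 CPM), Map2k3os (1.95 CPM), Atad3aos (1.71 CPM), Slc36a1os (1.21 CPM) and Cpeb1os1. Rbm46 encodes an RNA-binding protein needed for meiosis and Wt1 a transcription factor of Sertoli cells, and the starts of Wt1os and Wt1 were 19 bases apart. Wt1 itself had a log2 fold change of 0.16 (SE 0.0704), higher in every cKO library, and Arl4a, a gene for a small GTPase of the ARF-like family, had -0.23 (SE 0.0756), lower in every cKO library.

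Overlapping the start were H3f3aos (4.40 CPM), beside a gene for histone H3.3, Mxra8os (4.44 CPM), N4bp2os (2.96 CPM), Erich2os (2.68 CPM), Uckl1os (2.63 CPM), Phtf1os (1.82 CPM), Vax2os (1.75 CPM), Mkln1os (1.67 CPM), Sp3os (1.63 CPM) and Appbp2os (1.44 CPM). Of the Phtf1os sequence 51.6% is shared with other genes, and 11 of the 103 members share more than 10%. Overlapping the end were Rab10os (17.7 CPM), Fam219aos (8.18 CPM), Alkbh3os1 (7.82 CPM), Cdrt4os1 (3.12 CPM) and Rsf1os2 (1.57 CPM). St8sia3os (9.40 CPM), Dlx6os1 (3.64 CPM) and Zfp85os (3.04 CPM) span the partner, and Arhgap33os (11.4 CPM) is tail to tail with it. St8sia3os, Dlx6os1, Tmem147os, Tomm6os and Junos share exonic bases with another annotated gene on their own strand, and such reads are not assigned to either.

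The RNA exosome, its cofactors and other enzymes that degrade, cleave or edit noncoding and double-stranded RNA were looked at as a list of 36 genes. Of the 35 tested, 0 passed the adjusted threshold, 28 had a log2 fold change above 0 and 7 below, and the median was 0.05. Of protein-coding genes at 1 CPM or more, 8257 of 14026 were above 0, with a median of 0.03. At an unadjusted p under 0.05, 5 were higher and 2 lower with edgeR (7.32% and 6.54% of all genes), and DESeq2 called 0. The 2 lower genes were the exosome cofactors C1d, with a log2 fold change of -0.32 (SE 0.126), and Rbm7, with -0.21 (SE 0.0918). The cKO libraries were all above the WT libraries in 7 genes (10% of all genes, and 1934 of 14026 protein-coding genes), among them Dicer1, the endonuclease that cuts double-stranded RNA, with 36.9, 34.1 and 35.6 CPM in WT and 38.3, 44.5 and 48.1 CPM in cKO. Drosha, the nuclear endonuclease of microRNA precursors, had 63.2, 53.2 and 59.9 CPM in WT and 70.3, 66.9 and 65.1 CPM in cKO, a log2 fold change of 0.20 (SE 0.0763). The others were Ncbp3, Zc3h18, Ints9, Adarb1 and Xrn2. The exosome's catalytic subunits Exosc10 (116, 108 and 116 CPM in WT and 124, 117 and 111 CPM in cKO) and Dis3 (118, 118 and 116 CPM in WT and 118, 117 and 116 CPM in cKO) overlapped between the groups, and Mtrex, the helicase that feeds the nuclear exosome, had a log2 fold change of 0.15 (SE 0.0736).

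Of 10 well-known long noncoding RNAs, most of them antisense, imprinted or of the X-inactivation centre, 8 could be tested, 7 had a log2 fold change below 0 and the median was -0.15, none with an unadjusted p under 0.05. Tsix and Airn were at or below 0.121 CPM on average. Nespas, antisense in the Gnas locus, had 4.97, 5.59 and 3.54 CPM in WT and 4.41, 5.11 and 4.45 CPM in cKO, and Kcnq1ot1, antisense in Kcnq1, had 2.26, 8.43 and 4.07 CPM in WT and 2.60, 10.8 and 9.07 CPM in cKO. Kcnq1ot1 spread widely within each genotype, with WT 1 and cKO 1 the lowest libraries.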

How the data were processed

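Total RNA of whole testes was sequenced as single-end 75 bp reads, per the labels' protocols. The deposited values are raw read counts per gene, 1 table per library, with no normalization by the authors; the submitters' processing notes name STAR, HTSeq, DESeq2 and mm10 without their roles. The annotation release and library kit are not given in the sources used here. The lines that name no gene held 14.8% to 16.7% of reads and stayed out of library sizes and tests. The opposite-strand column was used. Gene names and positions came from GENCODE M21, which matched 52093 of 53700 identifiers (the rest held 0.187% of assigned reads).

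CPM were computed from these counts with TMM-scaled library sizes in edgeR 4.0.16 (R 4.3.3); the 1 CPM limit used unscaled totals. The 2 genotypes were compared with filterByExpr (minimum count 10), edgeR's quasi-likelihood test without covariates, two-sided, with p-values adjusted by Benjamini and Hochberg's method (21902 genes, threshold 0.05). Standard errors and 95% intervals came from that fit. DESeq2 1.42.0, other scalings and filters, unstranded counts, a replicate block and leaving out each library were alternatives. On simulated counts the test recovered 98% of log2 changes of 1 and 64% of changes of 0.5, with 7.98% and 7.25% of calls false. The counts' precision is set by 3 libraries per group and a common biological coefficient of variation of 8.79%.

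Members, lists and tests were chosen with earlier results of these data known. Values in every library are given for Sox5os3, Usp46os1, the 6 highest members, members whose groups do not overlap, members above their partner per kilobase and the partners of these; all other members are named with their mean. Values in every library of Lyzl4os, Lyzl4, Jun, Hmgb4 and the listed RNA surveillance and well-known long noncoding genes were added after their values were seen. Promoter windows are RefSeq's for GRCm38.p6.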

Additional observations from a re-analysis of the deposited data

How the results depend on the processing

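Members past the adjusted threshold numbered 0 with edgeR as reported, 7 with no filter on low counts, 4 with DESeq2 and 0 to 4 with 1 library left out; sense partners numbered 0, 5, 4 and 0 to 7. All genes past it numbered 4 as reported, 757 with no filter, 193 with DESeq2, 2 with unstranded counts and 1 to 628 with 1 library left out (116 without WT replicate 1 and 628 without cKO replicate 1, 2.82% of the genes then tested). Members called without WT replicate 1 were Saxo1os, Sox5os3, Lyzl4os and Usp46os1, and without cKO replicate 1 Sox5os3, Tmem132cos and Usp46os1. No filter called those 5 and Grip1os1 and Far1os. The cause was not tested.

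With a replicate block 2 members (Sox5os3 and Usp46os1, each with an adjusted p of 0.0471 by edgeR) and 49 of all genes passed, and 0 partners. The labels do not say that equal numbers pair mice, so the numbers were not taken as pairs. Deviations of same-numbered libraries correlated at 0.387, 0.262 and -0.0836. These values cannot decide whether the mice were paired, since those of differently numbered libraries are not given beside them.

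The median log2 fold change of members ranged from -0.158 to -0.0634 with 1 library left out, the latter without WT replicate 2. That of sense partners ranged from 0.0428 to 0.0881 with 1 library left out and was 0.0442 on library totals alone, a scaling that moved the median of all genes from 0.0030 to -0.02. Members below 0 numbered 77 to 86 over the alternatives. Members above their partner numbered 50 per kilobase and 28 without the length correction. A limit of 0.5 CPM would give 125 members, 2 CPM 79 and unstranded counts 99. With 3 libraries per genotype, changes of 0.5 on the log2 scale were missed in part in simulated counts, so members that did not pass are not shown to be equal between the genotypes.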
